A study of Homo sapiens with 12 samples.

Results

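The S100 genes encode small calcium-binding proteins, and 10 of them were followed over 4 cell lines: S100A2, S100A3, S100A4, S100A6, S100A10, S100A11, S100A13, S100A14, S100A16 and S100P. They were chosen by name, as the rows of the deposited gene table with these symbols, and all 10 were found among its 58302 genes. Of these, 8 passed the filter for testing, as did 16027 genes in all. S100A14 and S100P did not pass it. The RNA-seq data come from 12 libraries, 3 each of TPC1, a papillary thyroid carcinoma cell line with the wild-type (wt) genotype, and of D11, WB1 and TD5, which are TPC1 lines with the genotype DICER (+/-). The heterozygous lines were made by transient transfection of a CRISPR/Cas9 plasmid with a guide against exon 11 of DICER1, the gene of the RNase that cuts microRNA precursors, and each is a single clone that kept a wild-type allele. The labels conflict on the parent line: the cell line field and the protocol give TPC1 throughout, but the treatment field names TPC1 for 1 of the 9 clone libraries and a differently numbered TPC name for each of the other 8. All 4 lines grew in the same medium, none received a further treatment, and the study asked how thyroid cancer cells respond to a partial loss of Dicer1. The edit and the history of a clone cannot be told apart within 1 line. The labels do not say whether the 3 libraries of a line came from separate cultures, and p-values then measure the spread between these libraries, which may be technical.

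S100 proteins are built around a pair of EF hands, the loops that hold calcium. They mostly act as dimers, and when calcium rises in the cell many of them open a surface that grips a partner such as an annexin, a myosin or p53. Some are also released from cells and signal through receptors such as RAGE, the product of AGER. Most of the genes lie in a cluster on the long arm of chromosome 1, inside and beside the genes of the cornified skin envelope, while S100P lies alone on chromosome 4. In the thyroid, S100A4, S100A6 and S100A11 are familiar as proteins raised in papillary carcinoma.

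The values are scaled reads, that is, reads per gene after the authors brought each library to 20000000 reads, and they were rounded up to whole numbers, so every library summed to between 20009833 and 20014191. The reads behind them, estimated from the steps between the values, were 12710000 to 21030000 per library, with TPC1 replicate 1 the deepest. A floor of 3 reads was set by choice and not estimated from the data. It equals 2.85 to 4.73 scaled reads depending on the library. DICER1 had a mean of 1197 ± 142 scaled reads (SD, n = 3) in TPC1, 1040 ± 58.7 for D11, 878 ± 62 for WB1 and 693 ± 101 in TD5. Each of the 9 clone libraries lay below each TPC1 library, the closest being D11 at 1093 and TPC1 at 1101 scaled reads. The share of all genes with that order was not counted. Reads from an edited allele are still counted, so these DICER1 values check the order of the lines and not the genotype. Of 13 thyroid markers, PAX8 carried nearly all reads of the list, whose sum was 7682 to 8974 scaled reads in TPC1, 7911 to 8417 in D11, 8738 to 10176 in WB1 and 9267 to 10069 in TD5. NKX2-1, TSHR, SLC5A5 and IYD were among those at 0 in all libraries. Blood markers summed to 14 to 37 scaled reads, endothelial markers to 0 to 9 and squamous markers to 4 to 21, so none of these lists held a tested gene. The fibroblast list of 7 genes summed to 259 to 367 in TPC1, 168 to 206 in D11, 238 to 355 in WB1 and 187 to 221 in TD5, with DCN at 0 throughout.

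The 10 genes fell into a high and a low class with nothing in between. S100A11, S100A16, S100A6, S100A10, S100A2 and S100A13 held between 3054 and 9540 scaled reads in each library, and these 6 genes made up 99.6% of the reads of the 10. S100A3 and S100A4 held between 53 and 112 scaled reads, S100A14 between 0 and 7, and S100P between 0 and 2. Levels of different genes are compared here per length, as scaled reads per 1000000 and per kb of merged exons averaged over the 4 lines. On that scale S100A11 came first at 671, ahead of S100A6 at 382, S100A10 at 304, S100A16 at 247 and S100A2 at 174. S100A13 followed at 73.6, then S100A3 at 4.56 and S100A4 at 4.11, and S100A14 (0.153) and S100P (0.0354) closed the order. In TPC1 the neighbours S100A3 (3.88 ± 0.299, SD, n = 3) and S100A4 (4.0 ± 0.63) did not differ beyond their spread, and neither did S100A14 (0.235 ± 0.0392) and S100P (0.141 ± 0.123). The means of the other neighbours were further apart in TPC1 than their SDs, as in S100A10 (281 ± 17.5) against S100A16 (234 ± 19.5). The length taken for a gene mattered: with the length of the MANE transcript, chosen after seeing the data, S100A6 (854) stood ahead of S100A11 (773), S100A13 (342) ahead of S100A2 (275) and S100A4 (7.58) ahead of S100A3 (5.17). S100A13 moved furthest with the length taken, from 73.6 to 342, while the longest transcript left the order as it was.

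**Figure D1:**
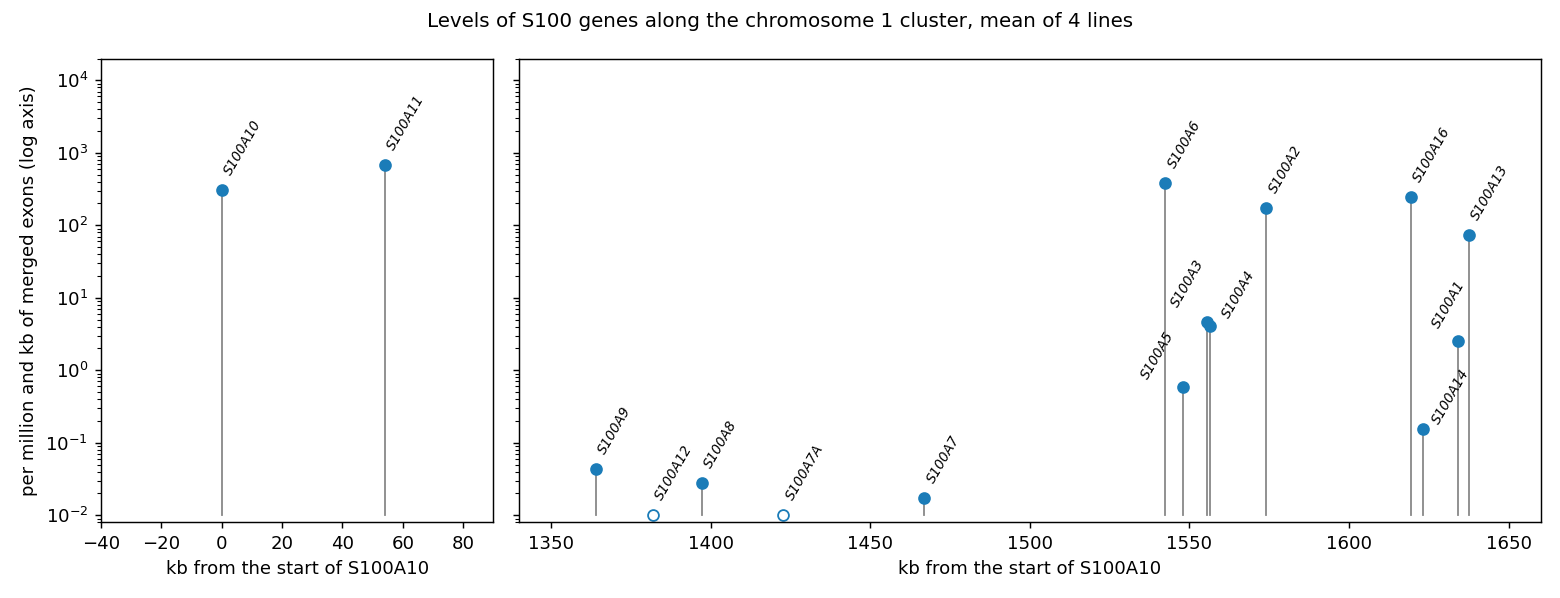
Level of each S100 gene on chromosome 1 (scaled reads per 1000000 and per kb of merged exons, mean of 4 lines, log axis) against the distance of its annotated start from that of S100A10 in kb. Open circles are genes at 0, and S100A7L2 (0.0272) is not drawn. S100A10 and S100A11 stand together at the left, and at the right S100A14 (0.153) lies between S100A16 (247) and S100A13 (73.6).

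High and low members were interleaved along chromosome 1. S100A16, a broadly expressed member, starts 1619.3 kb from S100A10 and S100A14, an epithelial member, 1623.1 kb, and their mean levels per kb were 247 and 0.153. S100A3, a cysteine-rich protein of the hair cuticle, and S100A4, a regulator of cell motility, start at 1555.4 and 1556.3 kb, between S100A6 (1542.4 kb) and S100A2 (1574.0 kb), both of which were in the high class. S100A5, at 1547.9 kb, had 9 to 17 scaled reads. The genes at 1364.0 to 1466.8 kb, which include S100A9, S100A8, S100A12, S100A7A and S100A7, best known from neutrophils and inflamed skin, had 0 to 2 scaled reads in each library. S100B, S100G and S100Z on other chromosomes also stayed at 0 to 2. The positions are those of GRCh38, the build the authors mapped to.

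The sequences before the annotated starts are shown for 6 members that differ widely in level. S100A6, S100A4 and S100A3 are near neighbours in the cluster, as are S100A16 and S100A14, and S100A11, far from these 5, is shown as the member with the highest level. RefSeq on GRCh38.p14 gave promoters for 10 of 10 members, 14 windows in all, and each line below holds the 250 bases before a start, written 5′ to 3′ on the gene's own strand, which is the minus strand for all 6. Capitals mark TATAA within the last 50 bases, the AP-1 site TGACTCA or its reverse complement TGAGTCA, and the GC box GGGCGG or its reverse complement CCGCCC. The windows are chr1:152037005-152037254 for S100A11, chr1:153535992-153536241 for S100A6, chr1:153545807-153546056 for S100A4, chr1:153549259-153549508 for S100A3, chr1:153613138-153613387 for S100A16 and chr1:153616326-153616575 for S100A14.
S100A11: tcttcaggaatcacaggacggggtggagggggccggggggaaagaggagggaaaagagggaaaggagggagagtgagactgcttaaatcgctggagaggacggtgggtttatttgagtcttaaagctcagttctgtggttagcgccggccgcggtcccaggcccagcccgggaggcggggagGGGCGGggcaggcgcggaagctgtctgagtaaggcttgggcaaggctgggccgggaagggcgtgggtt
S100A6: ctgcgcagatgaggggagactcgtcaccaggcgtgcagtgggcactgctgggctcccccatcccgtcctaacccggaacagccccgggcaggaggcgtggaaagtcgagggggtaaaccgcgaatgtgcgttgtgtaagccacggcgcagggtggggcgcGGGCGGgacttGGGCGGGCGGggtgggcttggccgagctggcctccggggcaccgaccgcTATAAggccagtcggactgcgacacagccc
S100A4: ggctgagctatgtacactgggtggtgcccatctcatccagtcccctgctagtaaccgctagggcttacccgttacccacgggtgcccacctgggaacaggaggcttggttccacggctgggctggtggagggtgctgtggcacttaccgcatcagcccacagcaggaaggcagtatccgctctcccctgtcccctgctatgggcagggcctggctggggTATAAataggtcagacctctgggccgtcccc
S100A3: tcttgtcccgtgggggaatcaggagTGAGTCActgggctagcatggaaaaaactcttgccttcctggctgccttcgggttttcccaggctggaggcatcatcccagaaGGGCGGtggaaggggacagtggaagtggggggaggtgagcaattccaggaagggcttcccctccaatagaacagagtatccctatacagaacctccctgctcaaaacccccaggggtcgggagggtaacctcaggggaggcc
S100A16: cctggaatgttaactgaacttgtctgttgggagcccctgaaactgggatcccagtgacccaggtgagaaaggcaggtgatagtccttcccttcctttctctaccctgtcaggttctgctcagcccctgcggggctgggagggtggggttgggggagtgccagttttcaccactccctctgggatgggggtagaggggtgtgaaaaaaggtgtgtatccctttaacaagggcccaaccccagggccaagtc
S100A14: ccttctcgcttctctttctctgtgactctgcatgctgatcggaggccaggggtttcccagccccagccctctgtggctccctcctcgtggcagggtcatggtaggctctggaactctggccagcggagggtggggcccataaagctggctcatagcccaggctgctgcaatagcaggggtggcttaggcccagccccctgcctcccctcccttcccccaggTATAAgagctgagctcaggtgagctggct
TATAA stood in the last 50 bases of 5 of the 14 windows, which belong to 5 of the 10 members, namely S100A6, S100A4, S100A14, S100P and 1 of the windows of S100A13, against 4.74% of all 35116 promoters of the table. Thus TATAA was found before S100A6, at 6282 scaled reads or more, and before S100A14 and S100P, at the floor. An AP-1 site was found in 2 of the 14 windows, those of S100A3 and S100A2, against 4.2% of all promoters, and a GC box in 6 of the 14 against 42.6%. The count of CpG in these windows ran from 1 in a window of S100A16 to 24 in S100A6 and S100A10, with a median of 11 over all promoters. S100A16 has a further window, not printed above, that holds a GC box and 6 CpG. The RefSeq start is 1 of several annotated for some members, and it can lie inside the outermost start used for the distances above. A match describes the letters only, and which start these cells use was not tested.

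Summed over the 10 genes, S100 transcripts took a larger share of the WB1 and TD5 libraries than of those of TPC1 and D11. The genes took 0.1717%, 0.1941% and 0.1915% of the 3 TPC1 libraries, and 0.1912%, 0.1832% and 0.1819% of the D11 libraries. In WB1 the shares were 0.2073%, 0.2073% and 0.2152%, and in TD5 they were 0.2156%, 0.2112% and 0.1988%. D11 lay inside the range of TPC1, whereas all 6 libraries of WB1 and TD5 lay above all 6 of TPC1 and D11. The summed share was not tested, and the share of all genes separated in that way was not counted. The means were 0.186 ± 0.0123% (SD, n = 3) in TPC1, 0.185 ± 0.00504% in D11, 0.21 ± 0.00456% in WB1 and 0.209 ± 0.00871% in TD5. As the libraries are of bulk RNA, a change in the share of some cells and a change in RNA per cell cannot be told apart. The lowest TPC1 value came from replicate 1, which was also the lowest of the 12 libraries for 5 of the 6 abundant members.

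**Figure D2:**
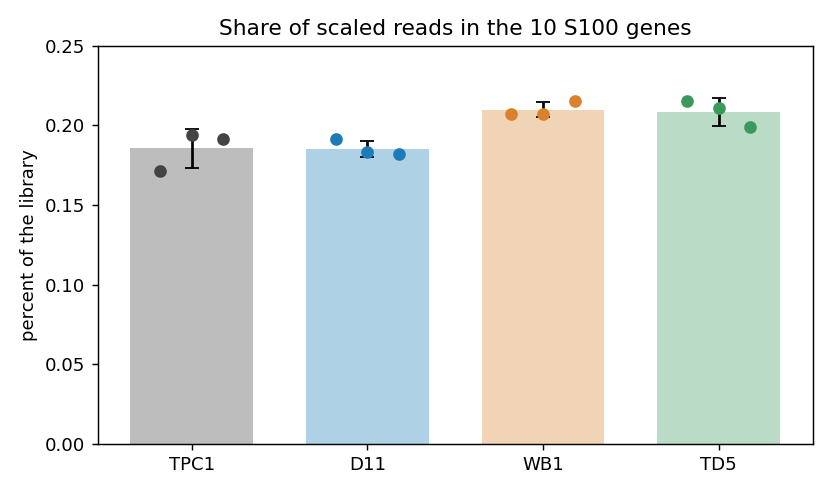
Share of all scaled reads in the 10 S100 genes, in percent of the library; bars are means, error bars SD and points the 3 libraries of each line. The points of WB1 and TD5 sit at 0.1988% or above, and those of TPC1 and D11 at 0.1941% or below.

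Gene by gene, S100A3, of the hair cuticle, was 1.42-fold as high in WB1 as in TPC1, calcyclin (S100A6) 1.21-fold and S100A2 1.15-fold, all past the threshold on the adjusted p. In TD5, S100A10 was at 1.18-fold and S100A6 at 1.15-fold, past it as well, and in D11 the abundant members were between 0.965-fold (S100A11) and 1.04-fold (S100A2). The largest of these differences stayed below 1.5-fold. Differences between lines were tested with limma on log2(value per 1000000 + 1) over all 12 libraries, and calling a gene took both an adjusted p (Benjamini-Hochberg) under 0.05 and at least 1.5-fold. All folds below are on that scale, which understates changes of low genes, and the comparisons of the 3 clones with TPC1 share its libraries. By this rule 0 of the 8 tested S100 genes were called in D11, WB1 or TD5 against TPC1, where 4.84%, 4.99% and 2.6% of all tested genes were called. Between clones 0 of 8 were called as well, against 2.85% of all genes for WB1 against D11, 3.99% for TD5 against D11 and 2.33% for TD5 against WB1. At an unadjusted p under 0.05 0, 6 and 5 of the 8 passed in D11, WB1 and TD5 against TPC1, where 44.6%, 42.7% and 27.1% of all genes did, and 8, 4 and 1 between clones in the order above, against 19.3%, 36.9% and 30.4%. With voom on the estimated reads 1 was called in WB1 against TPC1 and 1 in WB1 against D11, S100A3 in both, and 0 in the others.

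On the adjusted p alone, 0 of the 8 were higher in D11 than in TPC1 (19.9% of all tested genes were), 5 in WB1 (18.6%) and 2 in TD5 (5.32%), and 0 were lower in any clone. The median log2 fold change of the 8 genes was 0.00 for D11, 0.19 for WB1 and 0.14 for TD5, against 0.05, 0.06 and 0.00 over all tested genes. Between clones, 2 of 8 were higher in WB1 than in D11 (4.65% of all genes), 3 in TD5 than in D11 (8.43%) and 0 in TD5 than in WB1 (4.52%). In the test of any difference among the 4 lines 6 of 8 passed, against 44.6% of all genes; S100A13 (adjusted p = 0.0905 from limma) and S100A4 (0.0987) did not. Single libraries weighed on these counts. Without TPC1 replicate 1, 2 genes instead of 5 passed in WB1 against TPC1, namely S100A3 and S100A6, and the count was also 2 without WB1 replicate 3 and 3 without TPC1 replicate 3. In TD5 against TPC1 the count fell from 2 to 0 without TPC1 replicate 1 or TD5 replicate 1, and to 1 without TD5 replicate 2, WB1 replicate 2 or 3, or any 1 of the D11 libraries. In WB1 against D11 it was 0 without D11 replicate 3 or WB1 replicate 2 or 3, and 1 without D11 replicate 1 or 2. In TD5 against D11 it was 0 without D11 replicate 2 or 3 or TD5 replicate 1, and 1 without TD5 replicate 2. In TD5 against WB1 it was 1 without TD5 replicate 3. Among the 4 lines the count was 2 without WB1 replicate 3 and 3 without D11 replicate 2 or 3. Scaling by the median of ratios moved the median of the 8 genes in WB1 from 0.19 to 0.13 and in D11 to −0.054, with 2 of 8 past the adjusted p in WB1, where 13% of all genes were then past it and higher.

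**Figure D3:**
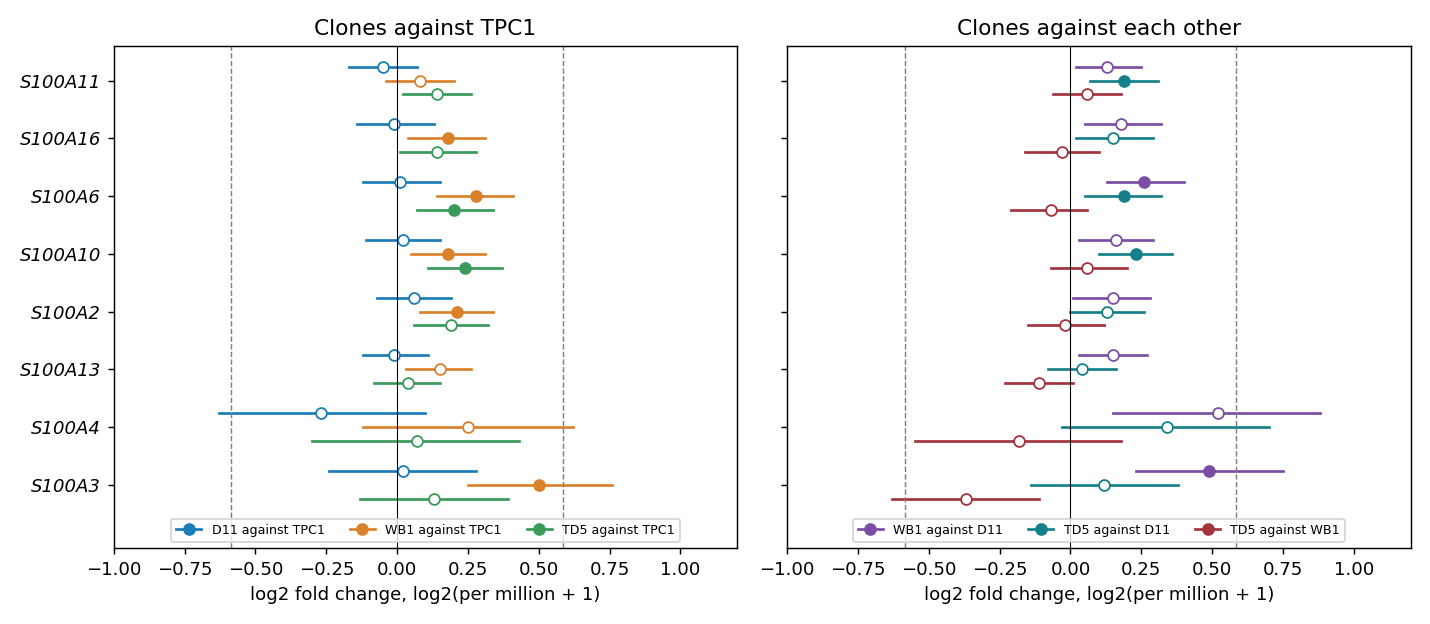
Log2 fold change of the 8 tested S100 genes with its 95% interval from limma, clones against TPC1 at left and against each other at right; filled circles had an adjusted p under 0.05, and dashed lines mark 1.5-fold. Points of D11 against TPC1 lie at 0.06 or below and none is filled, while 5 points of WB1 and 2 of TD5 are filled to the right of 0.

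The annexin-binding members S100A10, S100A11 and S100A6 are described first. S100A10, which pairs with ANXA2 at the plasma membrane and does so without needing calcium, had 5285, 5920 and 5879 scaled reads in TPC1, 6002, 5627 and 5635 for D11, 6161, 6389 and 6793 for WB1 and 7206, 6594 and 6438 for TD5. All libraries of WB1 and TD5 were above all of TPC1 and of D11. Against TPC1 the log2 fold change was 0.24 in TD5 (standard error 0.06, adjusted p = 0.0167 from limma) and 0.18 in WB1 (adjusted p = 0.0371). It was 0.02 in D11 (95% interval −0.11 to 0.15). TD5 also exceeded D11, by 0.23 (adjusted p = 0.0145 from limma), and WB1 against D11 was 0.16 (adjusted p = 0.138). Single libraries mattered for the 3 differences that passed. Without TPC1 replicate 1 or TD5 replicate 1 the TD5 value missed the threshold (adjusted p = 0.0828 and 0.0851 from limma), the WB1 value did without TPC1 replicate 1 or 3 or WB1 replicate 2 or 3 (0.149, 0.0524, 0.0765 and 0.129), and TD5 against D11 did without D11 replicate 2 or 3 or TD5 replicate 1 (0.0631, 0.0614 and 0.0716). Of the other settings, the WB1 value was 0.12 with median-of-ratios scaling (adjusted p = 0.215 from limma) and when corrected for GC content (0.138), and it also missed the threshold when corrected for exon length (0.0982), with no filter (0.0827) and with the replicate block (0.0615). The TD5 value missed it in a fit of the compared lines alone (0.0586).

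S100A11, which binds ANXA1 and takes part in membrane repair, had the highest median of the members over the 12 libraries, at 8816 scaled reads. It had 7821, 8712 and 8831 scaled reads in TPC1, 8456, 7861 and 8128 for D11, 8846, 8801 and 9173 for WB1 and 9540, 9459 and 8940 for TD5. All TD5 libraries lay above all of TPC1 and D11, and WB1 overlapped with TPC1. Against TPC1 no clone passed the adjusted p, with 0.14 in TD5 (adjusted p = 0.114 from limma), 0.08 in WB1 (0.274) and −0.05 in D11 (0.492). Corrected for GC content, the TD5 value was 0.17 and passed it (adjusted p = 0.0293 from limma). The difference between TD5 and D11 was 0.19 (adjusted p = 0.0204 from limma), and it missed the threshold without D11 replicate 2 or 3 or TD5 replicate 1 or 2 (adjusted p = 0.0619 to 0.096) or with no filter (0.0534).

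S100A6, or calcyclin, a partner of CACYBP and ANXA11 that is linked to proliferation, was the abundant member whose WB1 values were furthest from TPC1. The scaled reads were 6282, 7361 and 6736 in TPC1, 7055, 6823 and 6675 for D11, 7728, 8535 and 8393 for WB1 and 8334, 7688 and 7447 for TD5. WB1 and TD5 did not overlap with TPC1 or D11. In WB1 the log2 fold change was 0.28 (95% interval 0.14 to 0.41, adjusted p = 0.00457 from limma), a fold of 1.21, and over 24 alternatives it stayed between 0.21 and 0.38 with adjusted p between 0.00037 and 0.0307. In TD5 it was 0.20 (adjusted p = 0.0465 from limma), and the adjusted p rose to 0.182 without TPC1 replicate 1 and to 0.181 without TD5 replicate 1. It also missed the threshold without TPC1 replicate 3, TD5 replicate 2, WB1 replicate 2 or 3 or any 1 of the D11 libraries (adjusted p = 0.0512 to 0.119 from limma), and with no filter (0.11), median-of-ratios scaling (0.0763), the compared lines alone (0.119) or the replicate block (0.07). D11 was at 0.01 (95% interval −0.12 to 0.15), and WB1 exceeded D11 by 0.26 (adjusted p = 0.0161 from limma) and TD5 exceeded it by 0.19 (adjusted p = 0.0409). With the replicate number as a block, which is the pairing found for D11 and TD5, the last value kept its size of 0.19 and had an adjusted p of 0.0597 in limma, and corrected for GC content it was 0.12 (adjusted p = 0.221). It also missed the threshold with no filter (0.0966) and without any 1 of the D11 libraries or without TD5 replicate 1 or 2 (adjusted p = 0.0563 to 0.161 from limma), and WB1 against D11 did without D11 replicate 2 or 3 or WB1 replicate 2 or 3 (0.0658 to 0.0771).

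A lncRNA on the other strand, BX470102.1, overlaps S100A6 and rose in WB1 against TPC1, from a mean of 25 to 55.7 scaled reads (log2 fold change 0.75, adjusted p = 0.00187 from limma). Its highest value was 65 scaled reads against at least 6282 of S100A6. The library kit keeps strand, but the strand setting of the counting is not given in the sources used here, so reads of the overlap may be shared between both genes.

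S100A2 and S100A4 are the members best known for binding p53 and non-muscle myosin. S100A2, a mostly nuclear protein of basal epithelial cells, had 4535, 5068 and 5307 scaled reads in TPC1, 5346, 5037 and 5139 for D11, 5592, 5657 and 5946 for WB1 and 5716, 5960 and 5332 for TD5. The libraries of WB1 lay at least 285 scaled reads above those of TPC1, those of TD5 at least 25 above them, and 1 library of TD5 lay below the highest of D11. The log2 fold change was 0.21 in WB1 (adjusted p = 0.0195 from limma), 0.19 in TD5 (0.0569) and 0.06 in D11 (0.472). The WB1 value missed the threshold with median-of-ratios scaling (0.14, adjusted p = 0.132 from limma), without TPC1 replicate 1 (0.14, adjusted p = 0.0944 from limma) or WB1 replicate 3 (0.18, adjusted p = 0.0653), and the TD5 value passed it without TPC1 replicate 3 (0.24, adjusted p = 0.0421) or TD5 replicate 3 (0.23, adjusted p = 0.0318), and when corrected for GC content (0.22, adjusted p = 0.0091) or exon length (0.20, adjusted p = 0.046). Between clones no difference of S100A2 passed the adjusted p.

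S100A4, the motility protein that binds the myosin heavy chain of MYH9, was low and scattered. It had 72, 89 and 66 scaled reads in TPC1, 55, 70 and 53 for D11, 70, 105 and 109 for WB1 and 81, 106 and 58 for TD5. The lines overlapped, with D11 lowest on average at 59.3 ± 9.29 (SD, n = 3) and WB1 highest at 94.7 ± 21.5. No comparison passed the adjusted p in limma, and the widest was WB1 against D11 at 0.52 (95% interval 0.15 to 0.88, adjusted p = 0.0814). Without WB1 replicate 1 that value was 0.68 with an adjusted p of 0.0302 in limma, which passed both thresholds. It passed on the adjusted p alone without TD5 replicate 2 or 3 (0.0492 and 0.0381 in limma), in a fit of the compared lines alone (0.0453), and with the replicate block by itself (0.0488), with GC correction (0.0258) or with length correction (0.0453). TD5 against D11 passed it without TD5 replicate 3 (0.51, adjusted p = 0.0311).

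S100A3 was the member with the widest difference from TPC1. Its scaled reads were 60, 66 and 70 in TPC1, 68, 71 and 60 for D11, 89, 103 and 112 for WB1 and 79, 61 and 82 for TD5. Each WB1 library stood above each of the other 9. The log2 fold change in WB1 was 0.50 (standard error 0.12, adjusted p = 0.00603 from limma), a fold of 1.42, and its 95% interval of 0.25 to 0.76 included the 1.5-fold line. Over 23 alternatives it ran from 0.32 to 0.64 with adjusted p from 0.00172 to 0.0298, and it passed both thresholds with a pseudocount of 0.1 (0.61), with voom and after correction for GC content (0.60). D11 and TD5 were at 0.02 (adjusted p = 0.932 from limma) and 0.13 (0.53). WB1 exceeded D11 by 0.49 (adjusted p = 0.0185 from limma), which missed the threshold without D11 replicate 1 or 3 or WB1 replicate 2 or 3 (adjusted p = 0.051 to 0.0995) or with no filter on low values (0.0823), and TD5 against WB1 was −0.37 (adjusted p = 0.0532), or −0.43 without TD5 replicate 3 (adjusted p = 0.0352), −0.42 when corrected for GC content (0.0324) and −0.24 with a pseudocount of 4 (0.0404). The annotated S100A3 lies within S100A4 on the same strand, so reads of exons they share could not be given to either with certainty, and the low counts of both carry that limit.

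Beyond S100A2 follow S100A16, S100A14, S100A1 and S100A13 in that order. S100A16 had 7192, 8422 and 8239 scaled reads in TPC1, 7954, 8089 and 7642 for D11, 9492, 8434 and 8989 for WB1 and 8797, 9108 and 8426 for TD5. WB1 and TD5 were above TPC1 throughout, though the closest libraries were only 12 scaled reads apart for WB1 and 4 for TD5. In limma the log2 fold change was 0.18 in WB1 (adjusted p = 0.0455), 0.14 in TD5 (0.152) and −0.01 in D11 (0.941). The value in WB1 was 0.11 (adjusted p = 0.236 from limma) with median-of-ratios scaling, and it missed the threshold without TPC1 replicate 1 or 3, WB1 replicate 1 or 3, TD5 replicate 1 or any 1 of the D11 libraries (0.0538 to 0.205), with no filter (0.106), the compared lines alone (0.0633), the replicate block (0.0707) or exon length correction (0.0738). Corrected for GC content, the TD5 value was 0.19 and passed it (adjusted p = 0.0279 from limma). Between clones no difference passed as reported, but TD5 against D11 did with median-of-ratios scaling (0.20, adjusted p = 0.0424 from limma) and WB1 against D11 with the compared lines alone (0.18, adjusted p = 0.039).

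S100A13, which helps FGF1 and interleukin 1 alpha leave the cell without a signal peptide, had the narrowest range of the 8 tested members relative to its level. It had 3106, 3202 and 3180 scaled reads in TPC1, 3313, 3078 and 3069 for D11, 3509, 3454 and 3544 for WB1 and 3398, 3283 and 3054 for TD5. WB1 was above all other libraries, and the other 3 lines overlapped. The log2 fold change in WB1 was 0.15 (95% interval 0.03 to 0.26, adjusted p = 0.0546 from limma), just short of the threshold, which it passed without TD5 replicate 3 (adjusted p = 0.0325), with a filter of 5 per 1000000 (0.0476), with voom (0.0473) and when corrected for GC content (0.20, adjusted p = 0.0049). It was 0.04 in TD5 (0.739) and −0.01 in D11 (0.953). A lncRNA on the same strand, AL162258.1, overlaps S100A13 and reached 3066 scaled reads, so the split of reads between the pair is uncertain. S100A1, a heart and muscle member outside the 10 that overlaps S100A13 on the opposite strand, had a mean of 134 ± 17.3 scaled reads in TPC1 (SD, n = 3), 143 ± 4.16 in D11, 197 ± 3.61 in WB1 and 143 ± 17.6 in TD5. Its log2 fold change in WB1 was 0.50 (adjusted p = 0.00309 from limma), under 1.5-fold.

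S100A14 and S100P were close to absent. S100A14 had 7, 5 and 6 scaled reads in TPC1, 6, 4 and 0 for D11, 5, 4 and 5 for WB1 and 2, 0 and 3 for TD5, and the lines overlapped except that TD5 lay below TPC1 and WB1. These values are near the floor and were not tested. S100P, a placental protein that binds ezrin, had 0, 2 and 2 in TPC1 and 0 in all 9 clone libraries. All of this lay below the chosen floor, so no difference was read from it, and S100P was not tested.

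**Figure D4:**
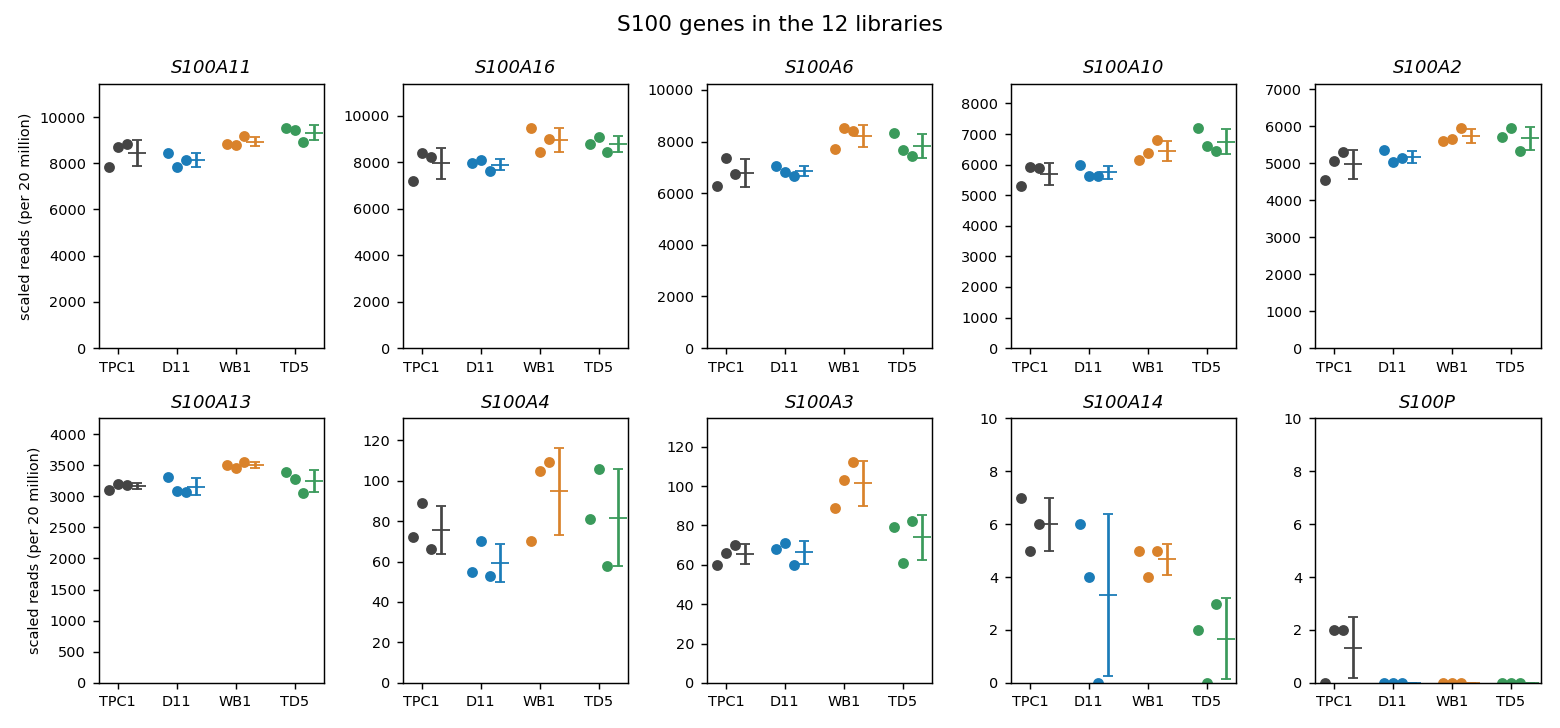
Scaled reads (per 20000000) of the 10 S100 genes in each of the 12 libraries; points are replicates 1 to 3 from left to right, the bar beside them is the mean with its SD, and each panel has its own axis from 0. In S100A6, S100A10, S100A2 and S100A16 the points of WB1 and TD5 lie above those of TPC1, and in S100A3 those of WB1 alone do.

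Across members, 0 of the 8 tested genes had all 9 clone libraries above all TPC1 libraries, where 5.17% of all tested genes did. Taken alone, all 3 WB1 libraries lay above all of TPC1 in 6 of 8 (26.5% of all genes), which were S100A2, S100A3, S100A6, S100A10, S100A13 and S100A16. In TD5 it was 5 of 8 (11.9%), which were S100A2, S100A6, S100A10, S100A11 and S100A16, and in D11 it was 0 of 8 (29.5%). For the separations from D11 or from several lines described above, the share of all genes was not counted. In D11 the 95% intervals of the 6 abundant members against TPC1 all lay between −0.17 and 0.19.

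The proteins that S100 members bind were read from a list of 25 genes, of which 20 were tested. In D11, 1 was called higher (4.84% of all genes were called) and 0 lower, in WB1 0 in either direction (4.99%), and in TD5 0 higher and 1 lower (2.6%). MDM2, the ubiquitin ligase of p53, rose in D11 (0.71, adjusted p = 0.000367 from limma), from 2316 to 3794 scaled reads on average. TLR4, a receptor for some secreted S100 proteins, fell by 1.93 on the log2 scale in TD5 (adjusted p = 9.67e-08 from limma), from a mean of 164 to 28.7. ANXA2, the partner of S100A10, was at −0.06, −0.07 and 0.01 in D11, WB1 and TD5. ANXA1, the partner of S100A11, was at 0.31 in WB1 (adjusted p = 0.00375 from limma) and at 0.02 and −0.01 in D11 and TD5. ANXA11 and CACYBP, which bind S100A6, were at −0.11, −0.13 and 0.13 and at 0.15, 0.17 and 0.07 in the same order. MYH9 was at −0.14, −0.18 and 0.02, and EZR, the ezrin gene, at −0.24, −0.50 and −0.25 (adjusted p = 0.0158, 9.31e-05 and 0.028 from limma), short of 1.5-fold. The median of the list was −0.06, 0.04 and −0.02 against 0.05, 0.06 and 0.00 over all genes.

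Other annexins and other EF-hand proteins were counted in the same way. Of 8 annexins beyond those partners 5 were tested, and in D11 0 were called higher and 1 lower (4.84% of all genes were called), in WB1 1 and 1 (4.99%), and in TD5 0 and 2 (2.6%). ANXA3 fell in all 3 clones, with log2 fold changes of −1.13 for D11, −0.88 for WB1 and −0.67 for TD5, from a mean of 1332 scaled reads in TPC1 to 599, 715 and 843. ANXA9 rose in WB1 (0.62) from a mean of 55.7 scaled reads, and ANXA8L1 fell by 0.72 in TD5 from 41. On the adjusted p but short of 1.5-fold, ANXA9 was also higher in TD5 (0.4) and ANXA8L1 lower in D11 (−0.57). Of 24 EF-hand genes outside the S100 family, such as the calmodulins and calpains, 22 were tested and in each clone 0 were called higher and 1 lower, near the shares of all genes. EFHD1, an EF-hand protein of mitochondria, fell by 0.86 in D11 and fell by 1.33 in WB1, and RCN3, of the endoplasmic reticulum, fell by 0.59 in TD5. RCN3 was also lower in D11 (−0.44) and WB1 (−0.56) on the adjusted p, short of 1.5-fold.

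Neighbours on chromosome 1 were counted as well. The window from 500 kb before to 500 kb after the 9 members there, chr1:151482915-154131360, held 153 genes of the table, and 31 of those outside the S100 family were tested. In D11 0 were called (4.84% of all genes were), in WB1 1 higher and 1 lower (4.99%), and in TD5 0 higher and 2 lower (2.6%), and their medians were −0.02, 0.01 and 0.01. The called genes were BX470102.1 and TUFT1 (−0.69) in WB1 and FLG (−0.74) and FLG-AS1 (−0.76) in TD5. TUFT1 was also lower in D11 (−0.53) and TD5 (−0.48) on the adjusted p, short of 1.5-fold. FLG, the filaggrin gene of the skin barrier, had a mean of 21220 scaled reads in TPC1 and 12588 in TD5. Of the 20 genes of the epidermal differentiation complex in the list, FLG and HRNR were the only ones tested, and LCE, SPRR and IVL genes were at 0 in all libraries. The other S100 genes were read from a list of 11, of which S100A1 alone was tested, and it was not called in any clone.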

How the data were processed

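RNA of TPC1 and of 3 DICER (+/-) clones was sequenced in 12 stranded mRNA libraries. The authors mapped reads to GRCh38 with STAR 2.5.3a, counted them on Ensembl genes with HTSeq 0.9.1 (versions from the submitters' processing notes) and normalized libraries to 20000000 reads. What they deposited is this score, rounded up to whole numbers and so not raw counts. The authors tested theirs with edgeR, which needs counts, so the test for scaled values named in the design was used. Libraries were assigned from their titles.

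Values per 1000000 of each library sum went, as log2(value + 1), into limma 3.58.1 under R 4.3.3 (trend, 1 mean per line, 12 libraries) for the 16027 of 58302 genes that reached 1 per 1000000 in 3 or more libraries. Reads per library (12710000 to 21030000) were estimated from the steps between values. The fit was tested on simulated data. Python 3.11.15 with pandas 2.3.3, numpy 2.4.6 and matplotlib 3.10.9 did the rest. Gene positions and lengths come from a GRCh38 annotation in which 57532 genes matched by identifier, and promoters come from RefSeq.

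Members and gene lists were chosen with earlier results of these data known. Named were all 10 members, from each list the called genes (at most 4, by size), and ANXA1, ANXA2, ANXA11, CACYBP, MYH9 and EZR; for each member called against TPC1 the genes most like it would have been named, and there were 0 such members. BX470102.1, AL162258.1, S100A1 and other S100 genes, and the undetected markers, were named besides. Deviations of same-numbered libraries from their line means correlated at 0.11, 0.17 and 0.35 in TD5 and D11. These were therefore taken as paired by number in an alternative fit, although no source states it. In the other pairs of lines not all 3 exceeded 0.1. The reported fit has no pairing. The replicate block, here the paired fit, spans all 4 lines, and no fit pairs TD5 with D11 alone. Alternatives were other pseudocounts, filters and scalings, voom, corrections for GC content and exon length (99.1% of tested genes had both), a replicate block, the compared lines alone and leaving out each library.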

Additional observations from a re-analysis of the deposited data

Results flagged for a closer look

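The change from TPC1 differed between clones for 4 S100 genes, by the limma test of clone against clone, in which the TPC1 libraries cancel. S100A3 was 0.49 higher in WB1 than in D11 on the log2 scale (adjusted p = 0.0185 from limma), with WB1 at 89 to 112 scaled reads and D11 at 60 to 71. S100A6 was 0.26 higher in WB1 than in D11 (adjusted p = 0.0161 from limma) and 0.19 higher in TD5 than in D11 (adjusted p = 0.0409), though the last missed the threshold in the fit with the replicate block (adjusted p = 0.0597), in which these lines are paired, and was 0.12 when corrected for GC content (adjusted p = 0.221). S100A10 was 0.23 higher in TD5 than in D11 (adjusted p = 0.0145 from limma), and S100A11 was 0.19 higher (adjusted p = 0.0204). In each of these 5 differences all 3 libraries of the higher clone lay above all 3 of D11, and none reached 1.5-fold. The differences were picked by their p in the same libraries, so this separation is no further support. The share of all genes separated in that way from D11 was not counted. The 95% intervals of the TD5 and D11 differences began at 0.05 for S100A6, 0.10 for S100A10 and 0.07 for S100A11. Each of the 5 missed the threshold on the adjusted p when some single libraries of the compared clones were left out.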

How the results depend on the processing

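Over 24 alternatives, 1146 fold changes of S100 genes were recomputed. Of these 1044 stayed on their side of the adjusted p, 74 passed it only as reported and 28 only in the alternative, and 31 changed sign, 0 of which passed it either way. S100A3 and S100A6 in WB1 against TPC1 passed in every alternative in which they were tested, S100A3 dropping out with a filter of 5 per 1000000.

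Calls of S100 genes stayed at 0 except in WB1 against TPC1, with 1 (S100A3) for a pseudocount of 0.1, voom, GC correction, and GC correction with the replicate block, and in WB1 against D11, with 1 for a pseudocount of 0.1 and voom (S100A3) and 0 to 1 with single libraries left out. With no minimum change 5, 2, 2 and 3 were called in WB1 and TD5 against TPC1 and WB1 and TD5 against D11. On the adjusted p alone, the count of 5 in WB1 against TPC1 was 3 with no filter, 2 with median-of-ratios scaling, 3 with the replicate block, 3 with exon length correction and 2 with both, and 2 to 6 with single libraries left out. The count of 2 in TD5 against TPC1 was 1 with no filter, 1 with median-of-ratios scaling, 0 with the compared lines alone, 1 with the replicate block, 5 after GC correction with or without the block (where 7.97% of all genes were past it and higher without the block), 1 after length correction with the block, and 0 to 3 with libraries left out. The 2 in WB1 against D11 became 1 with no filter or a filter of 5 per 1000000, 4 with the compared lines alone and 0 to 3 with libraries left out. The 3 in TD5 against D11 became 1 with no filter, 2 with the replicate block (the paired fit) and 0 to 4 with libraries left out. The 0 in TD5 against WB1 became 1 with a pseudocount of 4 and after GC correction with or without the block (S100A3, lower), and 0 to 1 with libraries left out. The 6 among the lines became 2 with no filter, 3 with the replicate block alone or with length correction, and 2 to 8 with libraries left out. For TD5 and D11, where the numbers were taken as pairs, no other call changed; in the other pairs of lines samples share only a number.

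All genes called against TPC1 were 775 in D11, 799 in WB1 and 417 in TD5. A pseudocount of 0.1 gave 1188 in D11 and 1233 in WB1, a pseudocount of 4 gave 295, 339 and 180, a filter of 5 per 1000000 514, 523 and 272, voom 1177 in D11 and 1274 in WB1, and no minimum change 5329, 4956 and 1906. Between clones (WB1 against D11, TD5 against D11, TD5 against WB1) the pseudocount of 4 gave 213, 283 and 140 and no minimum change 1293, 3721 and 2186. A pseudocount of 0.1 gave 987 in TD5 against D11 and 569 in TD5 against WB1, voom 981 in TD5 against D11, and the filter of 5 per 1000000 280 in WB1 against D11 and 231 in TD5 against WB1. In D11 against TPC1, 59.7% of the calls were higher, 48.2% with median-of-ratios scaling, 46.6% after GC and 47.0% after length correction. In WB1 against TPC1 these shares were 68.1%, 55.8%, 60.3% and 55.4%, in TD5 against D11 41.9%, 52.4%, 55.3% and 55.9%, and in TD5 against WB1 26.3%, 37.4%, 32.6% and 38.5%.

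Signs changed as follows. Median-of-ratios scaling gave −0.03 for S100A3, −0.044 for S100A6 and −0.043 for S100A10 in D11 against TPC1, and 0.04 for S100A2 and 0.027 for S100A16 in TD5 against WB1. GC correction, with or without the replicate block, gave −0.023 for S100A10, 0.065 for S100A13 and 0.087 for S100A16 in D11 against TPC1. Length correction, likewise with or without it, gave 0.014 for S100A2 in TD5 against WB1. With libraries left out, D11 against TPC1 ran from −0.0039 to 0.11 for S100A2, −0.029 to 0.07 for S100A3, −0.04 to 0.074 for S100A6, −0.036 to 0.045 for S100A10, −0.041 to 0.014 for S100A13 and −0.078 to 0.036 for S100A16. TD5 against WB1 ran from −0.053 to 0.027 for S100A2 and −0.074 to 0.011 for S100A16, and TD5 against TPC1 from −0.1 to 0.25 for S100A4. The cause of these changes was not tested. Depth limits S100A14 and S100P, which lie near or under the floor of 2.85 to 4.73 scaled reads, and S100A3 and S100A4 had wider standard errors (0.12 and 0.17) than the abundant members (0.06), of which the part due to counting was not tested.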

Other observations

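S100A5, a calcium-binding protein best known from olfactory neurons and not among the 10 genes, was under the filter for testing, but its TD5 libraries stood apart from the other lines, as noted after the values were seen. Its mean was 11.7 ± 0.577 scaled reads in TPC1 (SD, n = 3), against 11 ± 1, 9.67 ± 1.15 and 16 ± 1 in D11, WB1 and TD5, and the 3 TD5 libraries lay above the other 9. A read stood for an estimated 1.575, 1.4045 and 1.258 scaled reads in the TD5 libraries, so these values rest on few reads. The difference was not tested, and the share of all genes with such a pattern was not counted.

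Markers of cell identity also differed between lines, and their part in the S100 results was not tested. Of those described here PAX8 alone was higher in WB1 and TD5 on the adjusted p and not in D11. Of the tested S100 genes only S100A6 and S100A10 had that pattern. The share of all tested genes with it was not counted. The S100A6 value in TD5 and the S100A10 value in WB1 missed the threshold in several alternatives. Of the 13 thyroid genes 5 were tested, and in each clone 0 were called higher and 1 lower. The shares of all genes called were 4.84%, 4.99% and 2.6%. The called gene was FOXE1, a thyroid transcription factor, from a mean of 294 scaled reads in TPC1 to 143, 132 and 117 for D11, WB1 and TD5. Its log2 fold changes were −0.95, −1.06 and −1.20. On the adjusted p but short of 1.5-fold, HHEX was higher in D11 (0.39, adjusted p = 0.0161 from limma) and DUOX1 in WB1 (0.44, adjusted p = 0.0111). PAX8 had means of 7800, 7820, 9330 and 9363 in TPC1, D11, WB1 and TD5, and its log2 fold changes were 0.01, 0.26 and 0.27 (adjusted p = 0.953, 0.0112 and 0.0197 from limma), under 1.5-fold. In the epithelial list of 8 genes, KRT8, KRT18 and KRT7 were tested, with medians of −0.26, −0.24 and −0.23. Of these 0 were called in D11, WB1 or TD5, where 4.84%, 4.99% and 2.6% of all tested genes were called. On the adjusted p alone KRT18 (−0.47, −0.44 and −0.23) and KRT8 (−0.26, −0.24 and −0.43) were lower in every clone. CDH1, EPCAM, KRT19, CLDN4 and CLDN7 had at most 13 scaled reads in any library. Of the 7 fibroblast genes 3 were tested. In D11 0 were called higher and 1 lower, in WB1 1 and 1, and in TD5 0 and 1. The shares of all tested genes called are those given above. LUM, a collagen-binding proteoglycan, was at 0 in D11 and at a mean of 0.667 scaled reads in TD5. Its mean was 71.3 in TPC1 and 166 in WB1. PDGFRB fell by 1.41 in WB1, from 160 to 47. On the adjusted p but short of 1.5-fold, PDGFRB was also lower in D11 (−0.46) and COL1A1 lower in TD5 (−0.51).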
